A study of Homo sapiens with 6 samples.

Results

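The RAB GTPases, the largest branch of the Ras superfamily, were followed in xenograft tumors of MDA-MB-231, a triple-negative breast cancer line of human origin. Members were taken by name, RAB followed by a number and at most 1 letter, which gave 64 of the 60606 genes in the table. Of these, 45 were chosen by their level, a mean of at least 1 TPM (a share of all transcripts in a tumor, scaled for gene length) over the 6 tumors, and are called measured here. The irradiated group was 3 tumors given a single local dose of 10 Gy of X-rays at a volume of about 800 mm3 and collected 3 days later, and the control group was 3 tumors that were not irradiated. All 6 grew subcutaneously in NSG mice, which lack T, B and natural killer cells, from wild type MDA-MB-231 cells injected with Matrigel. For the controls neither size nor day of collection is on record. Whether each tumor had an animal of its own is not stated in the labels, and p-values therefore reflect only how far these 6 samples spread. The question was how RAB transcripts of tumors differ after local irradiation.

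RAB proteins are small GTP-binding switches that mark the membranes of the cell. Enzymes attach lipid tails to them, exchange factors load them with GTP at a given membrane, GTPase-activating proteins (GAPs) turn them off, and the GDP dissociation inhibitor (GDI) returns them to the cytosol. In the GTP form each binds effectors, such as tethers and motors, that move or dock vesicles. Secretory RAB proteins act between the endoplasmic reticulum, the Golgi and the plasma membrane, endocytic ones on early and late endosomes and lysosomes, and recycling ones on the way back to the surface.

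The label of the cell line was checked against its markers. VIM lay at 3148 to 3685 TPM in irradiated tumors and 3797 to 5283 TPM in controls, CD44 at 158 to 200 TPM in irradiated tumors and 221 to 267 TPM in controls, and AXL at 108 to 138 TPM in irradiated tumors and 157 to 205 TPM in controls, so these markers of the line separated the groups, while KRT8, KRT18 and EGFR overlapped. Of 5 luminal and receptor genes, ESR1 and PGR stayed at or under 0.32 and 0.22 TPM over the 6 tumors, GATA3 and FOXA1 reached 4.30 and 4.34 TPM, and ERBB2 lay at 25.4 to 40.7 TPM. Of the lists for other cells, summed endothelial markers overlapped, at 3.44 to 9.48 TPM in irradiated tumors and 2.75 to 7.77 TPM in controls. Leukocyte markers overlapped at 97.15 to 191.62 and 81.12 to 99.93 TPM. CD68 made up most of this, at 91.21 to 187.06 TPM in irradiated tumors and 74.92 to 94.19 TPM in controls. CSF1R reached 9.12 TPM, PTPRC stayed at or under 0.30 TPM, and 4 of the 12 markers were at 0 in all tumors. Adipocyte markers, none with a mean of 1 TPM, summed to 1.59 to 4.13 TPM in irradiated tumors and 0.60 to 1.03 TPM in controls. Muscle and fibroblast markers were lower in irradiated tumors. The 20 skeletal muscle markers, 16 of them at 1 TPM or more and none at 0 in all tumors, summed to 5.25 to 207 TPM in irradiated tumors and 290 to 740 TPM in controls. The 12 fibroblast markers, 9 of them at 1 TPM or more and none at 0 in all tumors, summed to 139 to 230 TPM in irradiated tumors and 499 to 1035 TPM in controls. Most of that sum was COL1A1, COL1A2 and COL3A1. LUM stayed at or under 0.09 TPM, PDGFRA at or under 0.22 TPM and THY1 at or under 0.39 TPM. PDGFRB leaned the other way with 4.21, 7.28 and 12.77 TPM in irradiated tumors and 3.45, 2.12 and 4.95 TPM in controls. So did COL6A3, with 1.99, 5.04 and 16.31 TPM in irradiated tumors and 2.12, 1.58 and 1.23 TPM in controls. Host cells are mouse, and whether mouse reads were removed is not given in the sources used here. Ribosomal protein genes held 20.1% to 20.9% of TPM in irradiated tumors, and 19.0%, 25.4% and 18.4% in control tumors 1, 2 and 3, so control tumor 2 stood apart. The part of these differences in the RAB values was not tested, and in bulk tissue fewer cells of a type cannot be told apart from less RNA per cell.

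RAB transcripts made up 0.225%, 0.240% and 0.240% of TPM in the irradiated tumors, against 0.234%, 0.211% and 0.230% in the controls, with overlapping groups. RAB7A, the RAB of late endosomes and lysosomes, had the highest mean over the 6 tumors, 244 TPM. It was followed by RAB34, which acts in lysosome positioning and cilium formation, at 229 TPM, and RAB5C of the early endosome at 223 TPM. RAB11A and RAB11B, both of the recycling endosome, came next at 205 and 157 TPM. Altogether 8 genes averaged 100 TPM or more and 10 averaged under 5 TPM. In none of the 44 neighbouring pairs of this order did all 6 values of one gene lie above all 6 of the next.

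**Figure D1:**
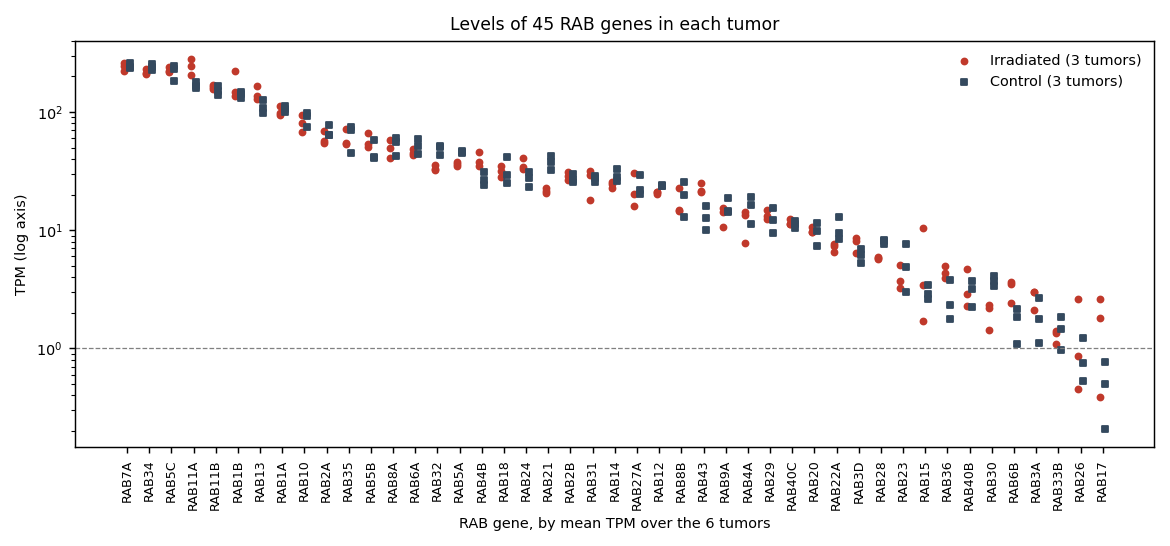
Level of each of the 45 measured RAB genes in each tumor, in TPM on a log axis, with genes ordered by their mean and colors separating irradiated from control tumors and a dashed line at 1 TPM. The order runs from RAB7A, with a mean of 244 TPM, to RAB17, with 1.05 TPM, and neighbouring genes overlap.

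The threshold of 1 TPM cut through a run of low genes. RAB17 and RAB26 lay just inside it, with means of 1.05 and 1.07 TPM, and RAB40A and RAB27B just outside, with 0.870 and 0.793 TPM. Of the 19 genes under the threshold, 16 never exceeded 1 TPM and RAB3C and RAB6C were listed at 0 in all tumors. RAB27B, which works with RAB27A in docking secretory vesicles and exosome-bearing bodies, had 0.90, 1.11 and 1.11 TPM in irradiated tumors and 0.65, 0.51 and 0.48 TPM in controls. RAB25, an epithelial relative of RAB11, had 0.15, 0.20 and 0.14 TPM in irradiated tumors and was listed at 0 in the 3 controls. In RAB27B, RAB25 and RAB39A every irradiated value lay above every control value, and in RAB38 every irradiated value lay below. That is 3 and 1 of 19 genes, all at values near the floor. Over all genes without the filter the same held for 2436 and 2694 of 30037. These include the 14140 genes at 1 TPM or more, where it held for 1638 and 2120. No share was computed for genes under the threshold alone, so this is only a description. The main comparison left these 19 genes out. Without the filter 62 of the 64 RAB genes were fitted and 0 were called.

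Of the 45 measured RAB genes, 1 passed the test between irradiated and control tumors. Each fold change is the irradiated less the control mean of log2(TPM + 1), a scale that shrinks the changes of low genes. A gene was called at a limma adjusted p of 0.05 or less among 14140 genes that reached a mean of 1 TPM. Called higher were 0 of 45 RAB genes, against 1.37% of all genes, and called lower was 1, RAB21, against 1.61%. With values scaled by medians of ratios or quantile normalized, 1 was called higher (RAB43) and 1 lower. Calls over all genes rose as well, to 1.85% higher and 1.74% lower with medians of ratios and 2.19% and 1.96% with quantile normalization. At an unadjusted p under 0.05 there were 12 of 45 (7 higher and 5 lower), or 26.7%, against 20.5% of all genes. The median log2 fold change was -0.01 for RAB genes and -0.06 for all genes, and the RAB median became 0.04 with medians of ratios and 0.05 with quantile normalization. The median of all genes moved along, to -0.009 and -0.005.

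Separation of the groups, meaning that all 3 values of one group lay above all 3 of the other, was read in the same way. It was found with irradiated tumors higher in 7 of 45 RAB genes, or 15.6%, against 11.6% of all genes, and with irradiated tumors lower in 8, or 17.8%, against 15.0%. These shares lie near those of all genes and are no result about the family. The 7 genes were RAB24, RAB36, RAB11A, RAB4B, RAB43, RAB6B and RAB13, and the 8 were RAB21, RAB5A, RAB22A, RAB32, RAB12, RAB28, RAB14 and RAB30. By role, separation with irradiated tumors higher and lower was found in 3 and 1 of 18 secretory genes, 1 and 5 of 12 endocytic genes, 2 and 1 of 8 recycling genes, and 1 and 1 of 7 others.

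**Figure D2:**
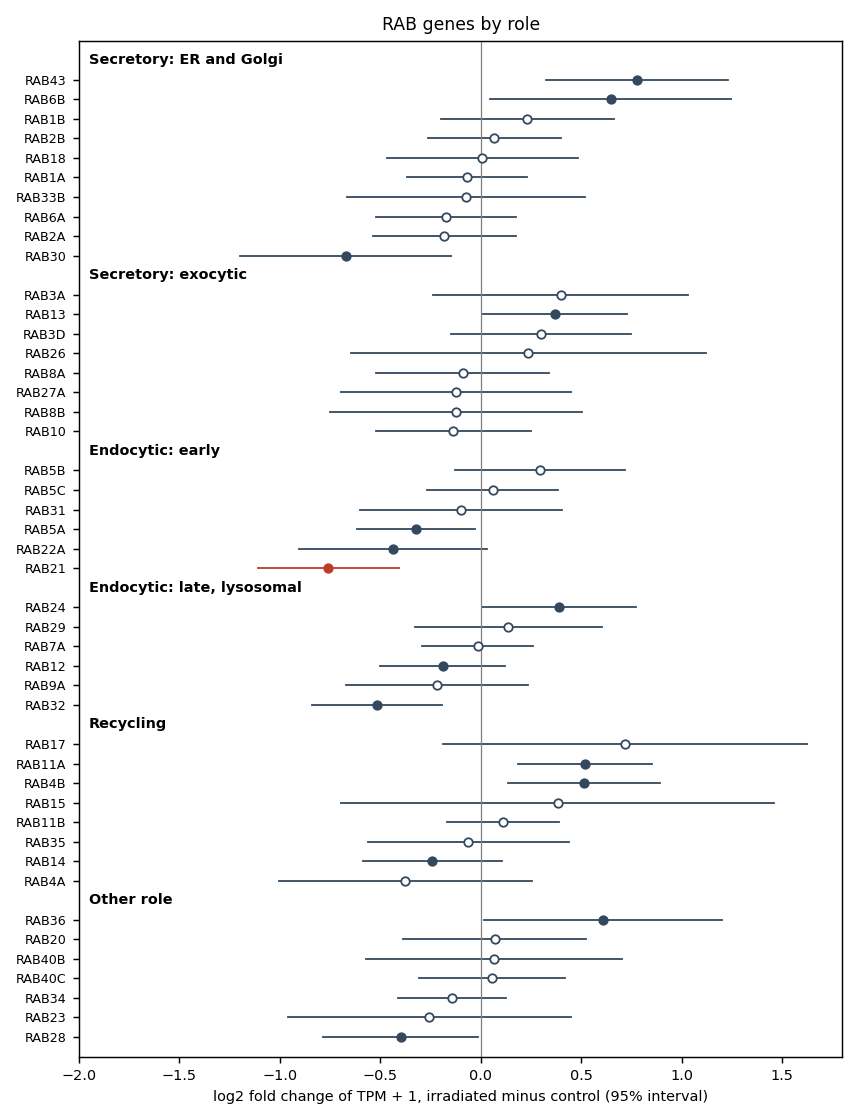
Log2 fold change of TPM + 1, irradiated minus control, of each measured RAB gene grouped by role, with bars for the 95% interval of the limma fit. Filled points are genes whose groups did not overlap, open points those whose groups did, and red marks the limma call at an adjusted p of 0.05 or less, which RAB21 alone reached.

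RAB21, an early endosomal RAB that guides the endocytosis of integrins, fell. It had 21.24, 22.95 and 20.57 TPM in irradiated tumors, against 42.22, 32.49 and 37.40 TPM in controls. Every irradiated tumor lay below every control, and the irradiated values were closer together. The means were 21.6 ± 1.23 TPM in irradiated tumors and 37.4 ± 4.87 TPM in controls (SD, n = 3 each), a log2 fold change of -0.76 with a 95% interval of -1.11 to -0.41 (limma adjusted p = 0.0413). RAB21 lies on chromosome 12 at 71754874 to 71800285 on the plus strand (GRCh38). The call was made in 7 of 16 alternative analyses, with adjusted p between 0.0267 and 0.149, and it was lost on leaving out any tumor but control tumor 2. Among the 7 is adding read-through genes, which leaves the RAB21 values as they are, so its call there was fixed in advance. Calls over the whole table moved as well: 3.95% of all genes were called lower without control tumor 2, and 0.475% to 0.800% without any other single tumor. Among irradiated tumors, the one with 207 TPM of muscle markers had 22.95 TPM of RAB21, and those with 5.25 and 7.26 TPM of muscle markers had 21.24 and 20.57 TPM. Control tumors 1, 2 and 3 had 290, 325 and 740 TPM of muscle markers and 42.22, 32.49 and 37.40 TPM of RAB21. The part of muscle or fibroblast content in the RAB21 values was not tested.

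Promoter windows are shown for RAB21, for RAB5A, the early endosomal gene with the next smallest p, and for RAB11A, the most abundant gene whose groups separated. Each is the 250 bases before the transcription start in RefSeq GRCh38.p14, 5′ to 3′ on the plus strand. Capitals mark the letters of 3 motifs found on either strand: the GC box GGGCGG, the extended E-box TCACGTGA, which holds the E-box CACGTG, and the ETS site CCGGAAG. RAB21 is at chr12:71754613-71754862, RAB5A at chr3:19946847-19947096 and RAB11A at chr15:65869241-65869490.
RAB21: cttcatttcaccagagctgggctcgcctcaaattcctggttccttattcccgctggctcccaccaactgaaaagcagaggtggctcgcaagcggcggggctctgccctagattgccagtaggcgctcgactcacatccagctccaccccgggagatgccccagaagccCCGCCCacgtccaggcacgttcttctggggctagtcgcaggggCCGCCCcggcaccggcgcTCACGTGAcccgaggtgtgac
RAB5A: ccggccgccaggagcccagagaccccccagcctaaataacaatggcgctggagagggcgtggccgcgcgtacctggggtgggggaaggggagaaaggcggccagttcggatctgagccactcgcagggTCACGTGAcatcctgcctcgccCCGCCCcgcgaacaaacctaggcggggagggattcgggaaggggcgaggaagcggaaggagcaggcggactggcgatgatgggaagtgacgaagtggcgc
RAB11A: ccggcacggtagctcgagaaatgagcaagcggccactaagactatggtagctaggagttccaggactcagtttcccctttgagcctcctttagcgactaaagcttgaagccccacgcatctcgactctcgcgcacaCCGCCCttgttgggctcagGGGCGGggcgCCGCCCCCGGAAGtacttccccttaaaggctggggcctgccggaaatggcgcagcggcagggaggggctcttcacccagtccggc

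Of the 45 measured genes, 37 had at least 1 window in the RefSeq table, with 56 windows in all. A gene counted as holding a motif if any of its windows held it. The extended E-box was looked for after these sequences were seen, and stood in the windows of RAB21 and RAB5A, or 5.41% of the 37 genes, against 1.04% of 27305 genes of all types. The E-box CACGTG, which it contains, stood in 5 RAB genes (RAB21, RAB24, RAB31, RAB4A and RAB5A), or 13.5%, against 7.73% of all genes. GC boxes were found in 34 of 37 RAB genes, or 91.9%, against 46.2% of all genes, which include non-coding ones. The ETS site was in 7, or 18.9%, against 10.2%, and the CCAAT box, with the letters CCAAT, in 12, or 32.4%, against 37.0%. The cyclic AMP response element TGACGTCA was in 0, against 2.03%. Counted by window, the shares were 3.6% against 0.85% for the extended E-box and 8.9% against 6.3% for the E-box. They were 78.6% against 42.6% for GC boxes, 12.5% against 8.5% for the ETS site and 30.4% against 32.0% for the CCAAT box.

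Endocytic genes had a median log2 fold change of -0.14 over 12 genes, with 4 above 0 and 8 below. RAB5A, which organizes early endosome fusion, had 36.29, 37.57 and 35.03 TPM in irradiated tumors and 45.68, 46.57 and 44.58 TPM in controls. Both groups were narrow and lay apart, yet the fold change of -0.32 did not pass the test (limma adjusted p = 0.202). RAB22A, another early endosomal RAB, had 7.34, 6.55 and 7.70 TPM in irradiated tumors and 12.97, 8.39 and 9.38 TPM in controls, with control tumor 1 highest (-0.44, limma adjusted p = 0.269). The sister genes of RAB5A overlapped between the groups. RAB5B had 53.48, 50.86 and 66.91 TPM in irradiated tumors and 57.43, 40.41 and 41.96 TPM in controls, and RAB5C, the most abundant of the 3, had a fold change of 0.06 with an interval of -0.27 to 0.39.

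On late endosomes and lysosomes, RAB7A was nearly level, with 244.51, 260.66 and 224.11 TPM in irradiated tumors and 261.50, 238.05 and 236.52 TPM in controls. Its log2 fold change was -0.01 with an interval of -0.29 to 0.26, and the sign turned to 0.04 with medians of ratios and 0.05 with quantile normalization. RAB32, which acts in the making of lysosome-related organelles, had 33.01, 32.12 and 35.65 TPM in irradiated tumors and 42.95, 51.87 and 50.93 TPM in controls. Its groups lay apart, at -0.52 with an interval of -0.84 to -0.19 (limma adjusted p = 0.0932). RAB24, linked to autophagy, had 33.03, 34.48 and 40.95 TPM in irradiated tumors and 23.12, 31.19 and 27.89 TPM in controls (0.39, limma adjusted p = 0.236). It shares 44.8% of its exon bases with MXD3 on the same strand, so its reads can be split in more than 1 way. RAB12, which acts in lysosomal delivery of receptors, differed by a small step, 20.40, 21.16 and 20.87 TPM in irradiated tumors against 23.84, 23.98 and 23.71 TPM in controls (-0.19, limma adjusted p = 0.469).

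Recycling genes had a median log2 fold change of 0.25 over 8 genes, which became -0.19 without irradiated tumor 3 and 0.02 at a minimum mean of 5 TPM. RAB11A, the central RAB of the recycling endosome, had 243.84, 279.38 and 203.58 TPM in irradiated tumors and 177.98, 160.00 and 164.50 TPM in controls. All irradiated values lay above the controls, and they spread more widely. The means were 242 ± 37.9 TPM in irradiated tumors and 167 ± 9.36 TPM in controls (SD, n = 3 each), a log2 fold change of 0.52 with an interval of 0.18 to 0.85, which did not pass the test (limma adjusted p = 0.0985). Its partner RAB11B had 169.66, 163.37 and 156.70 TPM in irradiated tumors and 149.81, 140.15 and 164.27 TPM in controls, with overlap. RAB11A ranked 2 among RAB genes by its mean in irradiated tumors and 4 in controls.

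RAB4B, a RAB of fast recycling, had 45.51, 34.97 and 37.39 TPM in irradiated tumors and 24.33, 26.38 and 30.79 TPM in controls, and the groups lay apart (0.51, limma adjusted p = 0.131). It shares 27.4% of its exon bases with the read-through gene RAB4B-EGLN2 and 25.7% with MIA-RAB4B, and with both added the fold change was 0.35 (limma adjusted p = 0.240). RAB4A, the other gene of the pair, leaned the other way with overlap, at 7.78, 13.37 and 14.38 TPM in irradiated tumors and 11.18, 16.43 and 18.96 TPM in controls (-0.38, limma adjusted p = 0.473). RAB14, which acts between the Golgi and endosomes, had 22.81, 25.39 and 24.36 TPM in irradiated tumors and 32.69, 28.11 and 25.85 TPM in controls (-0.24, limma adjusted p = 0.404). RAB35, a RAB of the plasma membrane and recycling, had a fold change of -0.06 with overlapping groups. RAB17 and RAB15 were low and uneven. RAB17 had 0.39, 1.81 and 2.64 TPM in irradiated tumors and 0.21, 0.76 and 0.50 TPM in controls, and RAB15 reached 10.46 TPM in irradiated tumor 3 and lay between 1.72 and 3.47 TPM in the other 5 tumors.

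**Figure D3:**
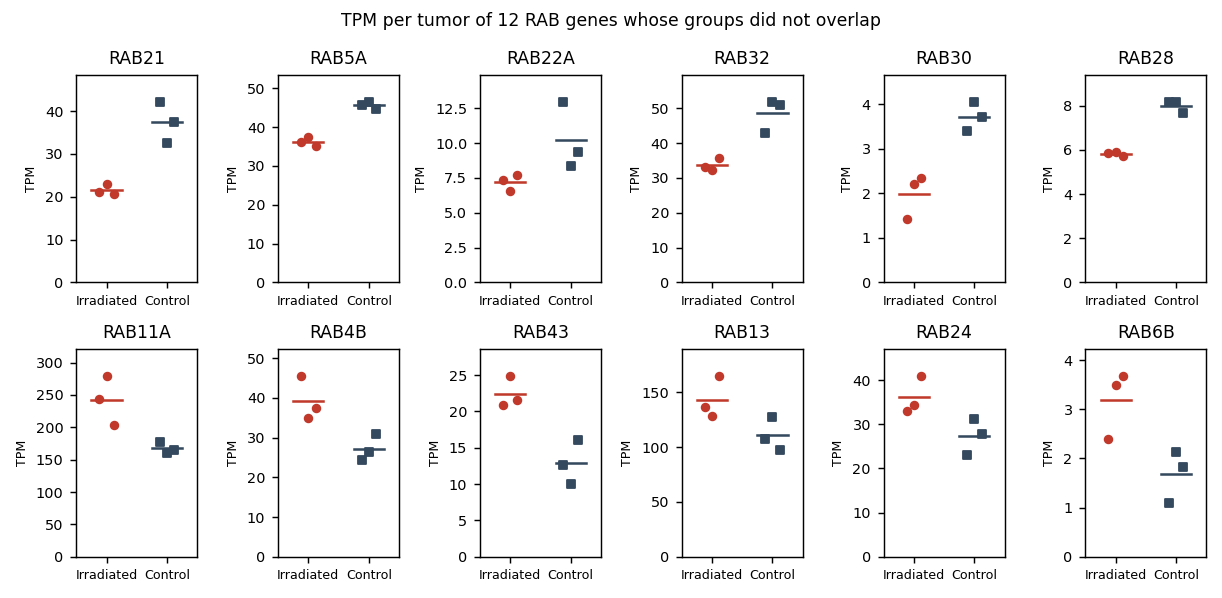
Level in TPM, from 0, of 12 of the 15 RAB genes whose groups did not overlap (all but RAB12, RAB14 and RAB36), 1 panel per gene, with points for tumors, irradiated on the left, and lines for group means. In the upper row, from RAB21 to RAB28, all irradiated tumors lie below the controls, and in the lower row, from RAB11A to RAB6B, all lie above.

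Secretory genes had a median log2 fold change of -0.03 over 18 genes, 9 above 0 and 9 below, and the median was 0.02 with either other scaling. RAB1A, which serves transport from the endoplasmic reticulum to the Golgi, had 94.37, 112.13 and 98.01 TPM in irradiated tumors and 105.57, 100.55 and 112.74 TPM in controls. Its close relative RAB1B had 136.05, 148.52 and 220.23 TPM in irradiated tumors and 142.36, 131.73 and 146.30 TPM in controls, so that 1 irradiated tumor stood above the other 5. Neither passed the test (limma adjusted p = 0.802 for RAB1A and 0.518 for RAB1B).

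RAB43, a Golgi RAB, had the largest positive fold change of the measured family on the log2(TPM + 1) scale. It had 20.84, 24.89 and 21.58 TPM in irradiated tumors and 12.57, 9.98 and 16.01 TPM in controls, with no overlap. The means were 22.4 ± 2.16 TPM in irradiated tumors and 12.9 ± 3.02 TPM in controls (SD, n = 3 each), a log2 fold change of 0.78 with an interval of 0.33 to 1.23 (limma adjusted p = 0.0775). It shares 79.3% of its exon bases with the read-through gene ISY1-RAB43, and with that gene added the fold change was 0.48 (limma adjusted p = 0.152). RAB30, also of the Golgi, lay lower, at 1.42, 2.20 and 2.35 TPM in irradiated tumors and 3.39, 4.06 and 3.72 TPM in controls (-0.67, limma adjusted p = 0.150). RAB6B, a Golgi RAB best known in neurons, had 2.40, 3.50 and 3.68 TPM in irradiated tumors and 1.10, 2.14 and 1.83 TPM in controls (0.65, limma adjusted p = 0.211).

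Among exocytic genes, RAB13, a RAB of cell junctions and the leading edge, had 136.98, 128.00 and 165.00 TPM in irradiated tumors and 107.50, 127.24 and 97.65 TPM in controls. The groups lay apart by the narrow gap between irradiated tumor 2 and control tumor 2 (0.37, limma adjusted p = 0.230). RAB27A, which docks secretory vesicles and exosome-bearing bodies, had 20.29, 30.53 and 16.00 TPM in irradiated tumors and 29.09, 20.26 and 22.02 TPM in controls. Its groups overlapped, and the interval of -0.70 to 0.45 leaves changes of some size in either direction undetected. RAB8A and RAB10, which carry cargo to the plasma membrane, had fold changes of -0.09 and -0.14 with overlap, and RAB3D, of regulated secretion, 0.30 (limma adjusted p = 0.428). In the remaining group, RAB28, a RAB of the cilium, had 5.84, 5.90 and 5.73 TPM in irradiated tumors and 8.18, 8.15 and 7.66 TPM in controls (-0.40, limma adjusted p = 0.228). RAB36, a relative of RAB34, had 3.95, 4.32 and 4.96 TPM in irradiated tumors and 2.31, 1.77 and 3.82 TPM in controls (0.61, limma adjusted p = 0.234). RAB34 itself overlapped, with a fold change of -0.14.

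The makeup of the RAB pool was described by the share of summed RAB TPM in each role, with no test, since the roles were laid out with the members' values known. Recycling genes held 24.5%, 24.1% and 21.9% in irradiated tumors and 20.3%, 19.9% and 20.8% in controls. Endocytic genes held 32.1%, 32.2% and 30.6% in irradiated tumors and 34.1%, 33.8% and 33.5% in controls. In both the groups lay apart, recycling higher and endocytic lower in irradiated tumors, while the summed endocytic TPM overlapped. Genes of other roles also held less in irradiated tumors, 11.3%, 10.6% and 11.3%, against 12.1%, 12.6% and 12.7% in controls. RAB11A carried the difference in recycling TPM: without it the recycling genes summed to 302, 296 and 318 TPM in irradiated tumors and 295, 261 and 313 TPM in controls, with overlap. Secretory genes held 32.2%, 33.2% and 36.2% in irradiated tumors and 33.5%, 33.7% and 33.0% in controls, with overlap.

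**Figure D4:**
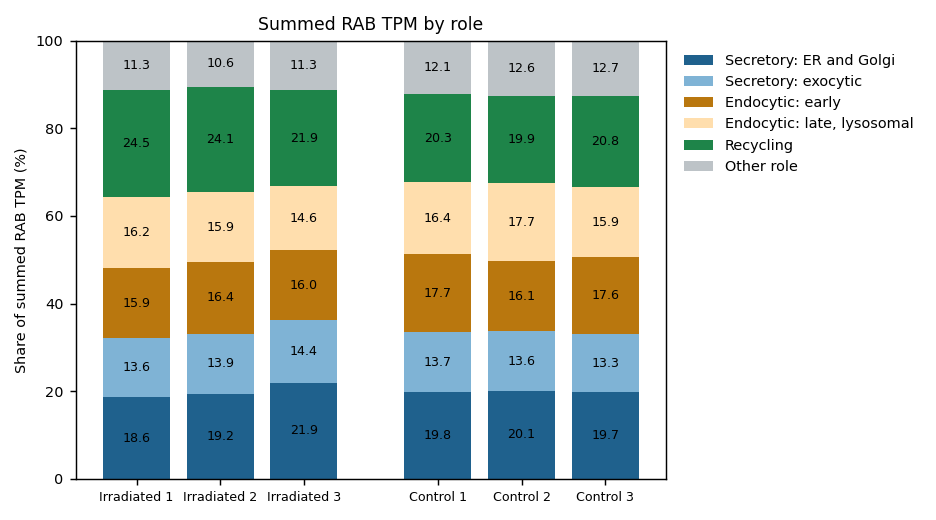
Share of summed RAB TPM, in percent, held by each role in each tumor, as stacked bars from 0 to 100%, irradiated tumors on the left and controls on the right. Recycling genes held 21.9% to 24.5% in irradiated tumors and 19.9% to 20.8% in controls.

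Within subfamilies of close relatives, 9 had 2 or more measured genes, and in 4 a member's share separated the groups. No like share was computed over other gene families, so this count is no result about the RAB genes. For levels of single genes the groups lay apart in 11.6% of all genes with irradiated tumors higher and 15.0% with them lower. RAB11A held 59.0%, 63.1% and 56.5% of RAB11 TPM in irradiated tumors and 54.3%, 53.3% and 50.0% in controls. RAB4B held 85.4%, 72.3% and 72.2% of RAB4 TPM in irradiated tumors and 68.5%, 61.6% and 61.9% in controls. For RAB5A the share of RAB5 TPM was 11.8%, 11.4% and 10.8% in irradiated tumors and 13.7%, 17.2% and 13.5% in controls, and for RAB6B the share of RAB6 TPM was 5.28%, 7.27% and 6.99% in irradiated tumors and 1.83%, 4.61% and 3.42% in controls. These shares were not tested. RAB4B shares exon bases with read-through genes, as given above, and its share was not computed with them added. Measured RAB genes shared at most 14.2% of their 50-base words with another RAB gene, the value of RAB6A, so relatives were largely distinct in sequence at that length.

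The genes that act on RAB proteins were read from 4 lists, and 3 of their measured genes passed the test. Of 8 prenylation and GDI genes 0 were called higher and 1 lower, of 46 exchange factor genes 0 and 1, of 36 GAP genes 0 and 0, and of 53 effector genes 1 and 0, against 1.37% higher and 1.61% lower of all genes. With medians of ratios or quantile normalization 1 GAP gene, TBC1D31, was called higher, against 1.85% and 2.19% of all genes. At an unadjusted p under 0.05 were 5 of 8 prenylation and GDI genes (2 higher and 3 lower), 7 of 46 exchange factor genes, 2 of 36 GAP genes and 5 of 53 effector genes, against 20.5% of all genes. Medians were -0.32, -0.04, 0.03 and -0.07 in that order, against -0.06 for all genes.

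RABGGTB, the catalytic subunit of the enzyme that attaches geranylgeranyl tails to RAB proteins, fell. It had 73.33, 77.83 and 62.08 TPM in irradiated tumors and 126.85, 124.79 and 155.82 TPM in controls, far apart. The log2 fold change was -0.92 (limma adjusted p = 0.0212), and the call was made in 8 of 16 alternatives, with adjusted p up to 0.0739, and lost without irradiated tumor 1 or 3 or control tumor 1 or 3. Among the 8 is adding read-through genes, which leaves the RABGGTB values as they are, so its call there was fixed in advance. RABAC1, a membrane protein that binds prenylated RAB proteins, had 490.98, 500.68 and 401.97 TPM in irradiated tumors and 270.49, 350.97 and 280.04 TPM in controls (0.63, limma adjusted p = 0.0682). GDI2, a GDP dissociation inhibitor, had a fold change of -0.43 and did not pass the test (limma adjusted p = 0.176).

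RILPL2, an effector of RAB8A, RAB10 and RAB36 that acts at cilia and lysosomes, rose. It had 25.03, 21.80 and 29.15 TPM in irradiated tumors and 6.34, 4.78 and 4.95 TPM in controls, with no value in between. The log2 fold change was 2.05 with an interval of 1.62 to 2.48 (limma adjusted p = 0.00142), and it was called in 16 of 16 alternatives. Among the 16 is adding read-through genes, which leaves the RILPL2 values as they are, so its call there was fixed in advance. Of the effectors of RAB5 proteins, EEA1, a tether, had 1.39, 1.56 and 1.71 TPM in irradiated tumors and 6.04, 3.40 and 2.85 TPM in controls (-0.95, limma adjusted p = 0.108). RABEP1, which links RAB5 to its exchange factor, had 6.51, 7.38 and 8.34 TPM in irradiated tumors and 20.96, 10.70 and 11.95 TPM in controls (-0.83, limma adjusted p = 0.122). In both genes control tumor 1 was the highest of all, and neither passed the test. Their relatives in function RABEP2 and APPL2 overlapped, at 0.05 and -0.07. APPL1 and RBSN, of the same list, lay lower with groups apart, at -0.58 and -0.40 (limma adjusted p = 0.194 and 0.260). Over the 53 effector genes the groups lay apart with irradiated tumors higher in 2 and lower in 9. These are 3.8% and 17.0%, against 11.6% and 15.0% of all genes. MYO5A, a motor that RAB proteins recruit, had a fold change of -0.66 (limma adjusted p = 0.115).

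CCZ1, part of the exchange factor of RAB7, fell to 19.73, 19.18 and 18.05 TPM in irradiated tumors, against 39.85, 33.17 and 31.86 TPM in controls (-0.84, limma adjusted p = 0.0282, called in 7 of 16 alternatives). It shares 69.5% of its 50-base words with its copy CCZ1B, and the sum of both was 93.5 ± 17.4 TPM in irradiated tumors and 93.7 ± 12.5 TPM in controls (SD, n = 3 each). Its call was lost on leaving out any tumor but control tumor 2, and the part of read splitting between the copies was not tested. Among the 7 alternatives is adding read-through genes, which leaves the CCZ1 values as they are, so its call there was fixed in advance. Of the GAP genes TBC1D31 had the smallest p, with 10.27, 14.14 and 11.28 TPM in irradiated tumors and 7.18, 5.82 and 5.65 TPM in controls (0.83, limma adjusted p = 0.0621). It was called with medians of ratios (limma adjusted p = 0.0349) and with quantile normalization (0.0295).

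**Figure D5:**
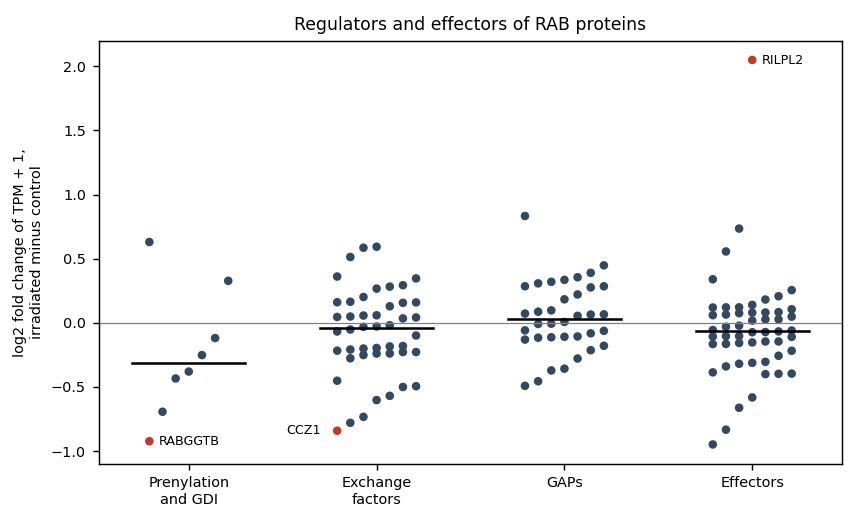
Log2 fold change of TPM + 1, irradiated minus control, of each measured gene of 4 lists that act on RAB proteins, with a line at each list's median and the called genes in red. RILPL2 lies at 2.05, apart from all others, and RABGGTB at -0.92 and CCZ1 at -0.84 are the lowest of their own lists, while the lowest point of all is EEA1 at -0.95, which was not called.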

How the data were processed

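Values are TPM per gene as deposited by the authors, in 1 table with a column for each of the 6 tumors, all used. Libraries were made from total RNA with a TruSeq RNA kit, per the labels' protocols, and HISAT2, StringTie, RSEM and hg38 are named, without versions or order, per the submitters' processing notes. No source used here gives the annotation release or the use of strand. TPM keeps no depth, so the number of reads behind a value is unknown and no count test was run.

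The groups were set against each other on log2(TPM + 1) with limma 3.58.1 (R 4.3.3, eBayes with trend, two-sided) for 14140 genes that reached a mean of 1 TPM, with Benjamini-Hochberg adjustment over all of them. The code was tested on simulated data. Gene positions, exon overlap and shared 50-base words came from GENCODE release 29, and promoter windows from RefSeq. Overlap on the opposite strand also leaves reads uncertain where strand was not used.

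The members, roles and lists were chosen with earlier results of these data known. Genes named are the called ones, the 2 with the smallest p in each role, the 5 most abundant, 15 widely studied RAB genes, and per list of regulators the called genes or else the 1 with the smallest p. Named after their values were seen were RAB6B, RAB12, RAB14, RAB15, RAB17, RAB22A, RAB25, RAB26, RAB38, RAB39A, RAB40A, RABAC1, GDI2, EEA1, RABEP1, RABEP2, APPL1, APPL2, RBSN and MYO5A. Alternatives were each tumor left out in turn, a replicate block, limma without trend, quantile normalization, medians of ratios as scaling, pseudocounts of 0.1 and 5 TPM, and a mean of 5 TPM or no minimum as filter. Added after seeing the data were leaving out irradiated tumor 2 and control tumor 2 together, and adding read-through genes to RAB genes.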

Additional observations from a re-analysis of the deposited data

How the results depend on the processing

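The count of RAB genes called higher was 0, and 1 with medians of ratios or quantile normalization, and 0 on leaving out any 1 tumor. These scalings called 1.85% and 2.19% of all genes higher, against 1.37% in the main analysis. The count called lower was 1, but 0 without a filter (RAB21 adjusted p = 0.0833), without trend (0.0729) and without irradiated tumor 2 and control tumor 2 (0.0731, chosen after seeing the data), and 0 to 1 on leaving out 1 tumor. With the replicate block it was 0 as well (RAB21 adjusted p = 0.110), and called genes over the whole table were 88 higher and 97 lower, against 194 and 227. Of all genes, 1.61% were called lower in the main analysis, 0.213% without a filter, 1.00% without trend and 0.878% without both tumors numbered 2. Without control tumor 2 alone the share was 3.95%, and without any other single tumor 0.475% to 0.800%. Deviations from the group means correlated at -0.043, -0.046 and -0.059 between tumors of the same number, and at -0.031 to 0.075 between the others. With 3 tumors per group such values cannot decide whether tumors of the same number shared a day or batch. The labels do not say that the numbers pair tumors. The median log2 fold change of RAB genes was 0.049 with quantile normalization, -0.099 without both tumors numbered 2 and -0.062 to 0.067 on leaving out 1 tumor. That of all genes was -0.005, -0.144 and -0.131 to 0.015 in the same settings. The secretory median ran from -0.071 to 0.11 on leaving out 1 tumor. The endocytic median was -0.097 without a filter, -0.093 with medians of ratios, -0.078 with quantile normalization and -0.22 to -0.094 on leaving out 1 tumor. The recycling median was 0.024 at a minimum mean of 5 TPM, 0.055 without both tumors numbered 2 and -0.19 to 0.26 on leaving out 1 tumor. Signs turned in 5 genes that no analysis called. RAB7A was 0.037 with medians of ratios, 0.049 with quantile normalization and -0.087 to 0.043 on leaving out 1 or both numbered 2. By the same leaving out RAB5C ran from -0.11 to 0.14, RAB8A from -0.35 to 0.037, RAB27A from -0.47 to 0.080 and RAB35 from -0.28 to 0.067. Among regulators, RABGGTB, CCZ1 and TBC1D31 changed call between analyses, as given above. The cause was not tested. TPM keeps no depth, so no limit from depth can be given.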
